A study of Mus musculus with 4 samples.

Results

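Retinoic acid metabolism was examined through 9 genes that carry, make, bind, degrade and sense this hormone-like derivative of vitamin A, out of 28545 genes listed in each library. The members, taken by gene symbol, are Rbp4, Stra6, Aldh1a1, Aldh1a2, Aldh1a3, Crabp2, Cyp26a1, Cyp26b1 and Rarb, and all 9 were found. Polyadenylated RNA of mouse uterus, labelled endometrium (the inner lining), was sequenced in 2 libraries labelled SMAD7 Cre+/- with the treatment CKO and 2 labelled SMAD7fl/fl with the treatment blank. The series' design text places the mice at proestrus, the stage before ovulation, and speaks of SMAD7 knockout and WT animals. Per the labels, the floxed allele was made by injecting a Smad7 guide RNA, a donor with loxP sites and Cas9 mRNA into fertilised eggs. Neither the promoter that drives Cre nor the age of the mice is given in the sources used here. Nor do the labels say that each library came from its own animal, so a p-value here weighs library-to-library spread, part of which may be technical.

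Retinol travels in blood bound to the protein encoded by Rbp4 and can enter cells through the receptor encoded by Stra6. Dehydrogenases turn it into retinaldehyde, the 3 Aldh1a enzymes oxidise that to retinoic acid, Crabp2 carries retinoic acid to its nuclear receptors, and the Cyp26 enzymes hydroxylate it for removal. Retinoic acid receptors, among them the one encoded by Rarb, bind DNA and change transcription, and in rodents the uterine genes of retinoid handling are known to vary over the estrous cycle and in early pregnancy.

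Smad7, an inhibitor of TGF-beta receptor signalling and the targeted gene, went against the labels. It had 49.9 and 33.9 FPKM (counts per unit of gene length and of library total) in the libraries labelled Cre, against 7.79 and 7.81 FPKM in those labelled floxed, and every direction below is one between labels, not one of a verified loss. Total counts ran from 17444368 to 22950532. The libraries labelled floxed were unlike each other, with a biological coefficient of variation of 0.403 against 0.163 for the pair labelled Cre. Epithelial and stromal markers of the endometrium were detected in all 4 libraries, at summed levels of 1180 to 1449 FPKM (Cre) and 1127 to 2068 FPKM (floxed) for 12 epithelial genes, and 1277 to 1368 FPKM against 951 to 1333 FPKM for 10 stromal genes.

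The promoters of Rarb and Cyp26a1 are shown because both hold the type of element through which retinoic acid receptors are known to bind, so that these genes serve as readouts in many tissues. The element searched was a 6-base core, 5 bases of any kind (NNNNN) and a second core, on either strand. A core was AGGTCA or one of its variants with the letters AGTTCA, with GGGTCA, or with GGTTCA. It was present in 32 of 32851 RefSeq promoter windows (0.0974%), each of 300 bases. Windows were found for 7 of the 9 members, 12 windows in all, and 2 of these members had the repeat. The 250 bases before the RefSeq start are printed on the gene's strand, with only the cores of the repeat in capitals. A core outside the repeat, as the GGGTCA in the Rarb sequence, stays in lower case. For Rarb they lie on chromosome 14 (GRCm38.p6, chr14:16575477-16575726, minus strand) and the repeat spans bases -53 to -37 from the start. For Cyp26a1 they lie on chromosome 19 (chr19:37697558-37697807, plus strand) and the repeat, at bases -32 to -16, reads in the direction opposite to the gene.
Rarb promoter: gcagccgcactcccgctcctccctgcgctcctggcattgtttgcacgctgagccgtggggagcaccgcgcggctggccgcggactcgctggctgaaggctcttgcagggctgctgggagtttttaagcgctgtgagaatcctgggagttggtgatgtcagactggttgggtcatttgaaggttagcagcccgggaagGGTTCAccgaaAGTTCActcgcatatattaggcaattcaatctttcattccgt
Cyp26a1 promoter: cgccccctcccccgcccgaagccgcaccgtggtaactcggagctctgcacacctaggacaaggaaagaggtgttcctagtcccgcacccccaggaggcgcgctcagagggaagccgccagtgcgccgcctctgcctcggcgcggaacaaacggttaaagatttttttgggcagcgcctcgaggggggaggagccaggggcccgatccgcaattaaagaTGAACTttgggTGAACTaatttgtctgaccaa
A match to these letters describes the sequence and does not show binding. Both genes are read against each other below.

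Of the 9 members, 8 had a mean of at least 1 FPKM over the 4 libraries and were tested, and Rarb was not. No member passed edgeR's quasi-likelihood test with Benjamini-Hochberg adjustment over all 13513 genes tested, where 0 genes passed (0.0%), 1876 (13.9%) had an unadjusted p under 0.05, DESeq2 called 843 and limma called 0. At an unadjusted p under 0.05 there were 3 members, Crabp2 higher and Aldh1a3 and Stra6 lower in the libraries labelled Cre, where 7.3% of all tested genes were higher and 6.58% lower. The CPM values (counts scaled to a common library total, on scaled library sizes) of the groups did not overlap for these 3 of 8 members, against 48.3% of all tested genes (24.7% with the libraries labelled Cre above, 23.6% with them below), and overlapped for the other 5. DESeq2 called 2 of the 8, Aldh1a3 and Crabp2, against 6.24% of tested genes. Without floxed replicate 1 edgeR called 3 of the 8 (Aldh1a3, Cyp26b1 and Crabp2) against 31.4% of tested genes, and without floxed replicate 2 it called 4 (Aldh1a1, Aldh1a3, Crabp2 and Stra6) against 21.8%. The median log2 fold change of the 8 members was -0.21, beside -0.033 for all genes tested. Over the 6 ways to split the 4 values, the two-sided exact permutation p was 0.333 for Crabp2, Aldh1a3 and Stra6, the smallest that 2 against 2 libraries allow. These 3 genes lie at chr3:87948666-87953376 (Crabp2, plus strand), chr7:66390890-66427517 (Aldh1a3, minus strand) and chr9:58063788-58153996 (Stra6, plus strand) on GRCm38, and no exon base of theirs is shared with another annotated gene.

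**Figure D1:**
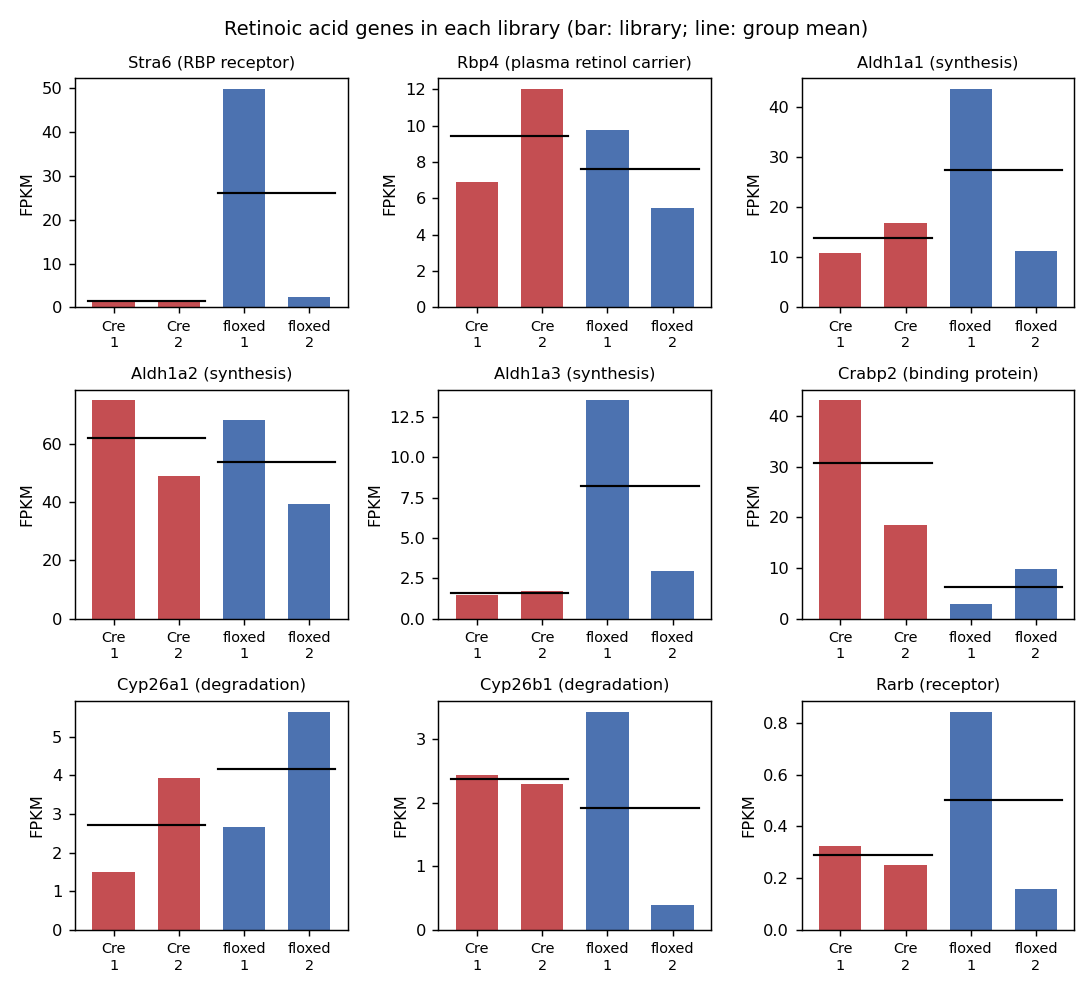
Deposited FPKM of each member in each library (bars), with the group means as lines; libraries labelled Cre stand left of those labelled floxed, and each panel has its own axis from 0. Stra6 at 49.8 FPKM and Aldh1a3 at 13.5 FPKM stand out in floxed replicate 1, while Crabp2 is above both floxed values in both libraries labelled Cre.

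Among the uptake genes, Stra6 had the widest range. It had 1.66 and 1.48 FPKM in the libraries labelled Cre, against 49.8 and 2.46 FPKM in those labelled floxed. Floxed replicate 1 thus stood far above the other 3 libraries, while floxed replicate 2 was close to the pair labelled Cre. The log2 fold change was -4.02 ± 1.33 (SE; adjusted p 0.294), and it was -0.70 without floxed replicate 1 (adjusted p 0.0849) and -4.95 without floxed replicate 2 (2e-13), with adjusted p-values from 2.4e-29 to 0.9998 over 12 alternatives. Between the floxed libraries alone Stra6 differed 18.9-fold in CPM, with a 95% exact counting interval of 16.7 to 21.5 from 6660 and 261 counts. Only 0.133% of all tested genes were at least as far apart in that pair, by the difference of log2(CPM + 1). Rbp4, the retinol carrier, was at 6.91 and 12.0 FPKM in the libraries labelled Cre and 9.73 and 5.44 FPKM in those labelled floxed. The groups overlapped, with a log2 fold change of 0.32 ± 0.44 (SE; adjusted p 0.758), and libraries of 1 group differed 1.73-fold (Cre) and 1.67-fold (floxed) in CPM. Of 10 adipocyte markers, 4 (Adipoq, Plin1, Plin4 and Lep) had the order of Rbp4 over the 4 libraries by FPKM and 6 had another. By CPM the order of Adipoq differed from that of Rbp4, with Cre replicate 1 lowest for Adipoq and floxed replicate 2 lowest for Rbp4. The 10 adipocyte markers summed to 124 and 255 FPKM in the libraries labelled Cre and to 337 and 148 FPKM in those labelled floxed, and none had an unadjusted p under 0.05. The 5 liver markers in the files were each at or under 0.649 FPKM in every library, and the part of adipose tissue in the Rbp4 level was not tested.

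The 3 enzymes that make retinoic acid differed in level and in pattern. Aldh1a2, the dehydrogenase of many mesenchymal tissues, had the highest FPKM of all 9 members in each of the 4 libraries. It had 75.1 and 49.2 FPKM in the libraries labelled Cre and 68.5 and 39.5 FPKM in those labelled floxed. Its groups overlapped, with a log2 fold change of 0.21 ± 0.35 (SE; adjusted p 0.802). Aldh1a1, which also oxidises other aldehydes, had 10.96 and 16.8 FPKM in the libraries labelled Cre, against 43.6 and 11.2 FPKM in those labelled floxed. Floxed replicate 2 lay within the range of the libraries labelled Cre. The log2 fold change of Aldh1a1 was -0.95 ± 0.63 (SE; adjusted p 0.542) and turned to 0.26 without floxed replicate 1. Aldh1a3 had 1.49 and 1.73 FPKM in the libraries labelled Cre, against 13.5 and 2.94 FPKM in those labelled floxed. Both libraries labelled Cre were below both labelled floxed, with a log2 fold change of -2.33 ± 0.71 (SE; unadjusted p 0.0202, adjusted p 0.269). Its size rested on floxed replicate 1, without which it was -0.92, and it was -3.04 without floxed replicate 2. Of 12 alternatives, Aldh1a3 passed in 4, among them both with 1 floxed library left out. The others were DESeq2 and edgeR with no filter on low genes.

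Summed over the 3 synthesis enzymes, the level was 77.6 ± 14.0 FPKM in the libraries labelled Cre and 89.6 ± 50.9 FPKM in the floxed ones (n = 2 libraries each, SD), and the difference was within the spread. Aldh1a2 made up 85.8% and 72.6% of the sum in the libraries labelled Cre, against 54.5% and 73.6% in those labelled floxed. Aldh1a3 made up 1.70% and 2.55% of it, against 10.8% and 5.49%. Aldh1a7, a close relative of Aldh1a1 that lies 49487 bases from it on chromosome 19, had 2.34 and 5.44 FPKM in the libraries labelled Cre and 2.99 and 1.62 FPKM in those labelled floxed. The longest protein-coding transcripts of the pair are identical at 90.25% of 2011 aligned bases. Of the 50-base windows of Aldh1a7, 7.49% also occur in Aldh1a1, and 3.06% of those of Aldh1a1 occur in other genes. The counts of both are uncertain for that reason, by an amount that was not measured.

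**Figure D2:**
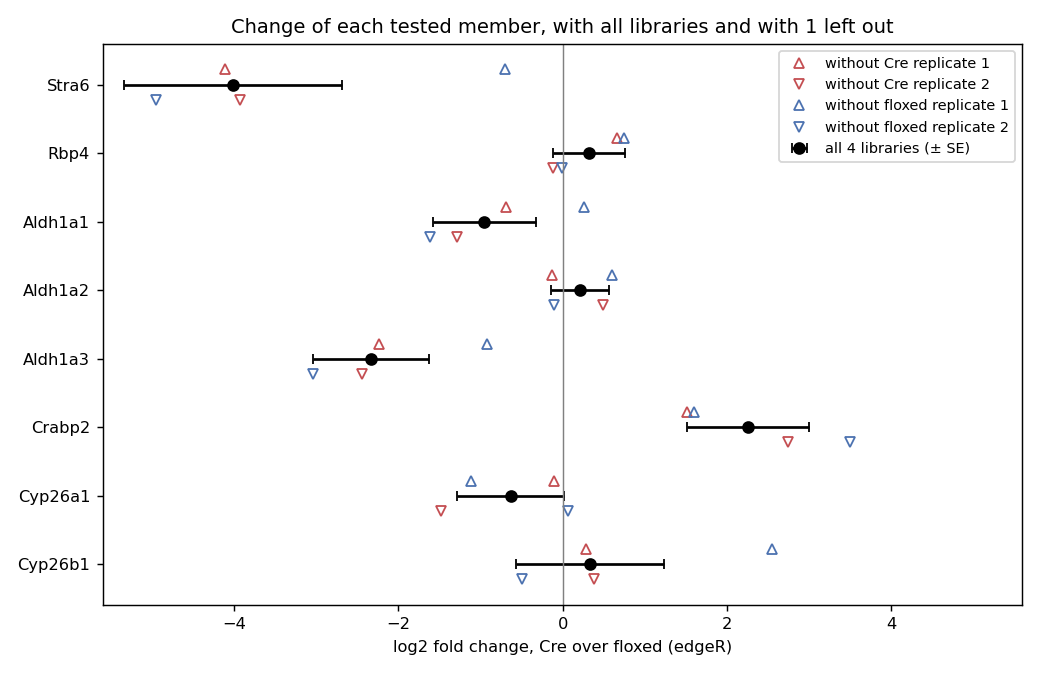
Log2 fold change of the 8 tested members, libraries labelled Cre over those labelled floxed, from edgeR with all 4 libraries (black, ± SE) and with 1 library left out (triangles). Crabp2 stays above 0 and Aldh1a3 and Stra6 below 0 in all 5 fits, while the other 5 members cross 0 when 1 library is left out.

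Crabp2, the binding protein that hands retinoic acid to its receptors, was the member with the clearest higher values in the libraries labelled Cre. It had 43.0 and 18.5 FPKM there, against 2.80 and 9.85 FPKM in the libraries labelled floxed. The lower library labelled Cre stood above the higher one labelled floxed, though the libraries of each group were also far apart, 2.33-fold for Cre replicate 1 over replicate 2 and 3.76-fold for floxed replicate 2 over replicate 1 in CPM. The log2 fold change was 2.26 ± 0.74 (SE; unadjusted p 0.0271, adjusted p 0.294). It was 1.60 without floxed replicate 1 and 3.497 without floxed replicate 2. It was 1.51 without Cre replicate 1 and 2.74 without Cre replicate 2. Over 12 alternatives Crabp2 passed in 4, among them both with 1 floxed library left out. The others were DESeq2 and edgeR with no filter on low genes. In a bulk tissue, fewer cells that express a gene and less RNA per cell cannot be told apart. The related binding protein Crabp1 had 6.10 and 3.002 FPKM in the libraries labelled Cre and 7.12 and 1.23 FPKM in those labelled floxed (log2 fold change 0.15 ± 0.86, SE; adjusted p 0.953).

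The degrading enzymes Cyp26a1 and Cyp26b1 did not follow each other. Cyp26a1 had 1.50 and 3.93 FPKM in the libraries labelled Cre and 2.66 and 5.65 FPKM in those labelled floxed. In both groups replicate 2 was the higher, and the groups overlapped (log2 fold change -0.63 ± 0.65, SE; adjusted p 0.684). Cyp26b1 had 2.43 and 2.30 FPKM in the libraries labelled Cre, against 3.44 and 0.390 FPKM in those labelled floxed. The libraries labelled Cre lay between the floxed pair, which differed 8.23-fold in CPM (95% exact counting interval 5.90 to 11.8, from 422 and 38 counts). The log2 fold change of Cyp26b1 was 0.34 ± 0.90 (SE; adjusted p 0.886). It was 2.55 without floxed replicate 1 and -0.50 without floxed replicate 2, so the direction depended on which floxed library was used. The summed level of both enzymes was 3.93 and 6.23 FPKM in the libraries labelled Cre and 6.09 and 6.04 FPKM in those labelled floxed. Cyp26a1 made up 38.2% and 63.1% of it in the libraries labelled Cre, against 43.6% and 93.5% in those labelled floxed. The third family member, Cyp26c1, lies 4399 bases from Cyp26a1 and had 0 and 2 counts in the libraries labelled Cre and 9 and 7 counts in those labelled floxed.

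Rarb, the receptor gene whose promoter is printed above, was the lowest member, at 0.326 and 0.2504 FPKM in the libraries labelled Cre and 0.844 and 0.157 FPKM in those labelled floxed. These values rest on 34 and 23 counts against 102 and 15 counts. Floxed replicate 1 was the highest library and floxed replicate 2 the lowest. With no filter on low genes the log2 fold change was -0.83 ± 0.62 (SE; adjusted p 0.634 over 27379 genes), and the ratio of mean CPM changed sign without floxed replicate 1. Exons of Top2b and Gm48162 on the other strand cover 38.4% of the exon bases of Rarb, and whether counting used strand is not given in the sources used here, so the Rarb level is uncertain. Top2b was at 13.0 and 14.2 FPKM in the libraries labelled Cre and 17.2 and 9.34 FPKM in those labelled floxed, so that, like Rarb, it was highest in floxed replicate 1 and lowest in floxed replicate 2. The part of Top2b reads in the Rarb level was not tested. Of the genes with the repeat shown above, Rarb was thus highest in floxed replicate 1 and Cyp26a1 in floxed replicate 2. The receptors Rara and Rarg were far higher than Rarb per length, at 19.9 and 17.4 FPKM and at 29.1 and 20.8 FPKM in the libraries labelled Cre, against 11.8 and 14.8 FPKM and 15.8 and 19.6 FPKM in those labelled floxed. Their log2 fold changes were 0.48 ± 0.24 and 0.49 ± 0.28 (SE; edgeR adjusted p 0.443 and 0.49).

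Libraries of 1 group also differed from each other. The floxed libraries were at least 2-fold apart, on log2(CPM + 1), for 6 of the 8 tested members, against 15.8% of all tested genes, and the pair labelled Cre for 2 of 8, Cyp26a1 and Crabp2, against 1.18%. Floxed replicate 1 was the highest of the 4 libraries for 4 of the 8 (Aldh1a1, Aldh1a3, Cyp26b1 and Stra6), against 27.1% of all tested genes. It was at least 2-fold above every other library for 3 of the 8, all but Cyp26b1, against 3.8%. These thresholds were chosen after the values were seen, and the members were not picked at random, so no test is given.

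**Figure D3:**
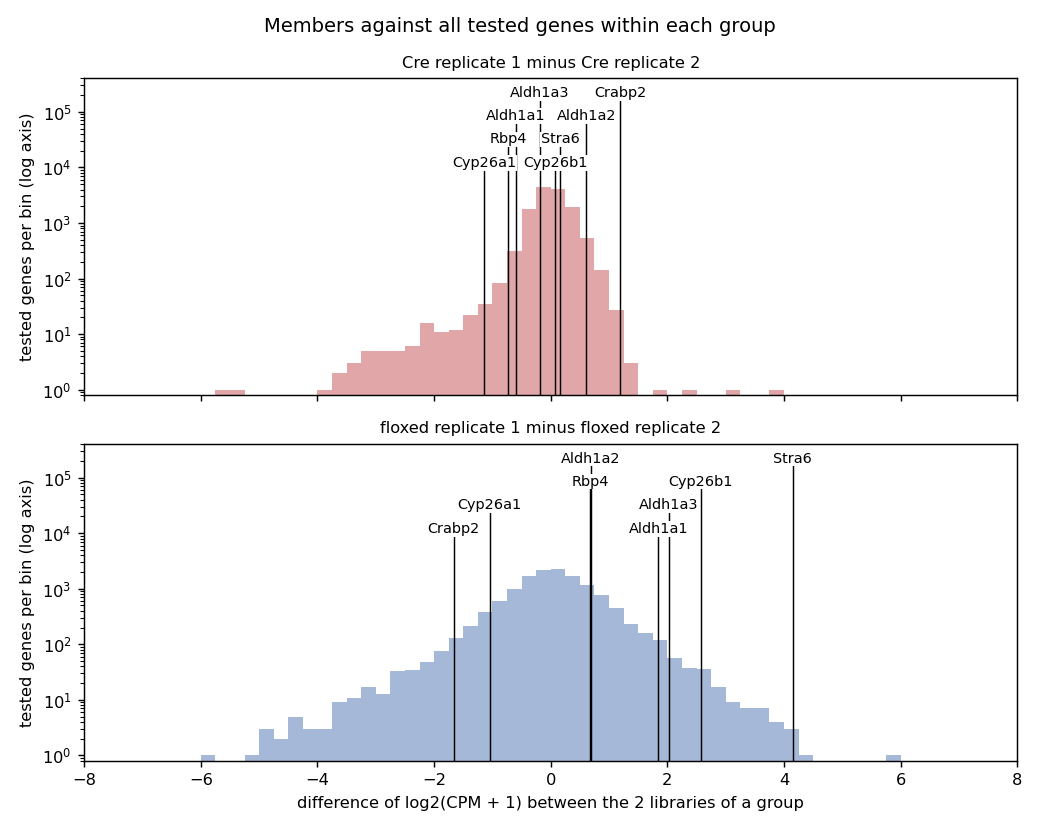
Difference of log2(CPM + 1) between the 2 libraries labelled Cre (top) and between the 2 labelled floxed (bottom); bars count all tested genes per bin on a log axis, and lines mark the 8 tested members. In the floxed pair Stra6 lies at 4.15, Cyp26b1 at 2.57 and Crabp2 at -1.66.

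Of 10 genes of the estrous cycle and proliferation, floxed replicate 1 had the highest FPKM for 4 (Ihh, Ptgs2, Mki67 and Top2a), the lowest for 4 (Ltf, C3, Lcn2 and Greb1) and neither for Sprr2f and Areg. Sprr2f, another estrogen-induced gene, had 73.6 and 51.9 FPKM in the libraries labelled Cre, against 167 and 470 FPKM in those labelled floxed. Ltf, C3 and Lcn2, genes that estrogen is known to induce in mouse uterine epithelium, had 1068, 746 and 424 FPKM in Cre replicate 1 and 643, 537 and 331 FPKM in Cre replicate 2. They had 203, 81.1 and 48.2 FPKM in floxed replicate 1, the lowest of the 4 libraries for each, and 603, 511 and 576 FPKM in floxed replicate 2. Crabp2 was lowest in the same library as these 3 genes. Ihh, a hedgehog ligand of uterine epithelium, had 3.23 and 3.54 FPKM in the libraries labelled Cre, against 17.3 and 2.45 FPKM in those labelled floxed. Top2a, a gene of dividing cells, had 5.13 and 7.73 FPKM in the libraries labelled Cre, against 33.4 and 3.31 FPKM in those labelled floxed. Stra6, Aldh1a1, Aldh1a3, Cyp26b1 and Rarb were highest in the library where Ihh and Top2a were. Greb1, another estrogen target, had 17.4 and 19.1 FPKM in the libraries labelled Cre, against 1.41 and 3.81 FPKM in those labelled floxed. The part of cycle stage in the levels of the members was not tested.

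**Figure D4:**
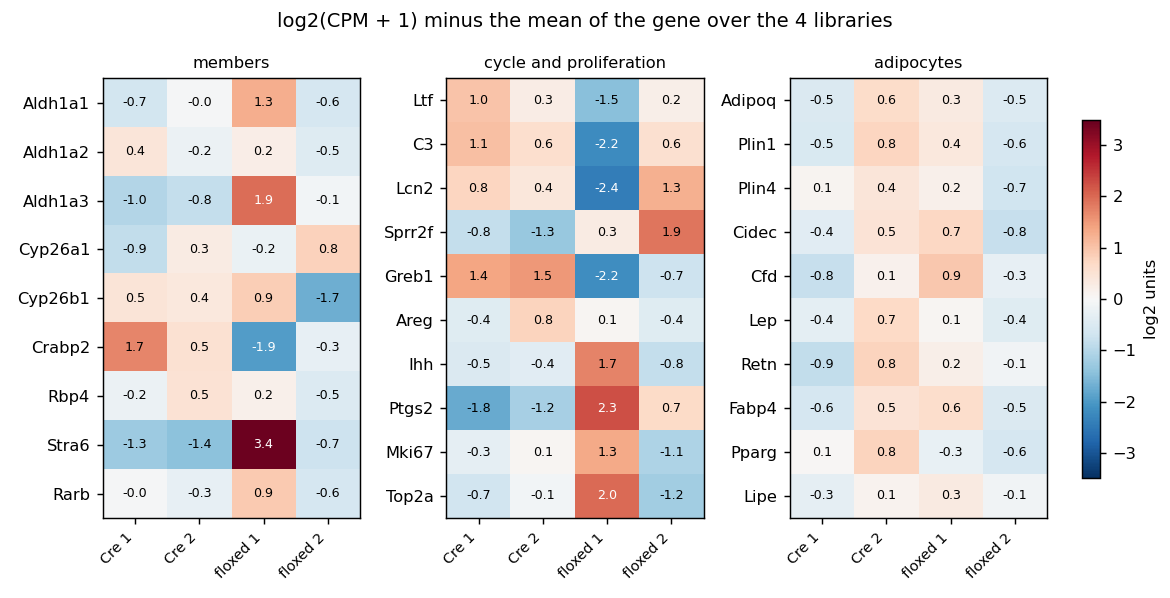
Values of log2(CPM + 1) in each library minus the gene's mean over the 4 libraries, for the members (left), genes of the estrous cycle and proliferation (middle) and adipocyte markers (right); red is above the mean and blue below. Floxed replicate 1 holds the highest values of Stra6, Aldh1a3, Ihh and Top2a and the lowest of Crabp2, Ltf, C3, Lcn2 and Greb1.

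Markers of neighbouring tissues differed between the labels too. At an unadjusted p under 0.05 in edgeR, 7.3% of all tested genes were higher and 6.58% lower, and the counts below use that threshold. Of 10 smooth muscle genes, 4 were higher at an unadjusted p under 0.05 and 0 lower, with summed levels of 2637 to 2944 FPKM in the libraries labelled Cre and 1576 to 1857 FPKM in those labelled floxed. Of 10 mesothelial genes, 6 were higher (Bnc1 passed the filter through the libraries labelled Cre alone), with sums of 263 to 375 FPKM against 202 to 262 FPKM, most of it Krt19, which epithelium expresses as well. Of 12 oviduct and ovary genes in the files, 6 were tested and 3 were higher, with sums of 103 to 298 FPKM against 24.9 to 45.9 FPKM. Most of the Cre sums was Ovgp1, which was not among the 3 (edgeR unadjusted p 0.0889). It had 56.0 and 243 FPKM in the libraries labelled Cre, against 0.489 and 23.4 FPKM in those labelled floxed. Of the 3 higher genes, Foxj1 and Hsd3b1 passed the filter only through the libraries labelled Cre, where they are high, which leaves 1. Zp3 had no count in any library. Of 8 neutrophil genes, 6 were tested and 5 were lower, with sums of 26.8 to 28.1 FPKM against 168 to 201 FPKM. Of these 5, S100a8, S100a9 and Cxcr2 passed the filter only through the floxed libraries, where they are high, which leaves 2. Of 8 macrophage genes, 2 were higher and 3 lower, with sums of 401 to 422 FPKM against 490 to 856 FPKM, and of 5 endothelial genes none had an unadjusted p under 0.05 in edgeR. No gene of these lists passed the adjusted test, and their part in the differences of Crabp2, Aldh1a3 and Stra6 was not tested.

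The wider retinoid pathway was read from a list of 90 other genes, 84 of which were in the files and 63 were tested. Of the 63, an unadjusted p under 0.05 was reached by 6 higher genes (9.52%, against 7.3% of all tested genes) and 4 lower ones (6.35%, against 6.58%), 0 passed edgeR's adjusted test, and the median log2 fold change was 0.075. Without Nr2f1 and Rdh1, which passed the filter through 1 group alone, these were 5 and 3. In retinol oxidation, Adh1, an alcohol dehydrogenase that accepts retinol, had 137 and 132 FPKM in the libraries labelled Cre, against 16.8 and 39.1 FPKM in those labelled floxed. Both libraries labelled Cre were above both labelled floxed, with a log2 fold change of 2.24 ± 0.47 (SE; unadjusted p 0.00464, adjusted p 0.166), and it kept its direction in all 12 alternatives, at 1.73 to 3.04. The antisense gene Gm16559 covers 6.09% of its exon bases. Rdh10, the dehydrogenase of embryonic retinoic acid synthesis, had 53.7 and 56.1 FPKM in the libraries labelled Cre, against 15.6 and 56.6 FPKM in those labelled floxed. Only floxed replicate 1 was low, and the log2 fold change of 0.58 ± 0.62 (SE; adjusted p 0.702) was -0.095 without it. Rdh1, a related dehydrogenase, had 0.719 and 1.09 FPKM in the libraries labelled Cre, against 3.45 and 1.399 FPKM in those labelled floxed (log2 fold change -1.40 ± 0.54, SE; adjusted p 0.352). It passed the filter through the floxed libraries alone, and another gene overlaps 11.8% of its exon bases.

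Dhrs3, which reduces retinaldehyde back to retinol, had 14.8 and 14.8 FPKM in the libraries labelled Cre, against 26.1 and 20.2 FPKM in those labelled floxed (log2 fold change -0.64 ± 0.20, SE; adjusted p 0.284). Of the 7 retinaldehyde reductases tested, Dhrs3 alone had an unadjusted p under 0.05 (14.29% lower, against 6.58% of all tested genes). Positive log2 fold changes were seen for 1 of the 7, against 6351 of all 13513 tested genes. Lrat, which stores retinol as esters, had 304 and 267 counts in the libraries labelled Cre, against 0 and 56 counts in those labelled floxed. It passed the filter through the libraries labelled Cre alone. Its log2 fold change was 3.30 ± 1.51 (SE; edgeR adjusted p 0.41), and the ratio of mean CPM was 9.61. Over 12 alternatives the log2 fold change ran from 1.62 to 11.3. Floxed replicate 1 had no count. The 0 there leaves room for a low level, and 3 counts in that library correspond to 0.127 CPM. Stra6l, a relative of Stra6, was under the filter at 0.300 and 0.306 FPKM in the libraries labelled Cre and 1.26 and 0.230 FPKM in those labelled floxed, so that floxed replicate 1 was highest for it too. Aldh8a1, listed here under retinaldehyde oxidation, had 0 and 1 counts against 1 and 2 counts.

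**Figure D5:**
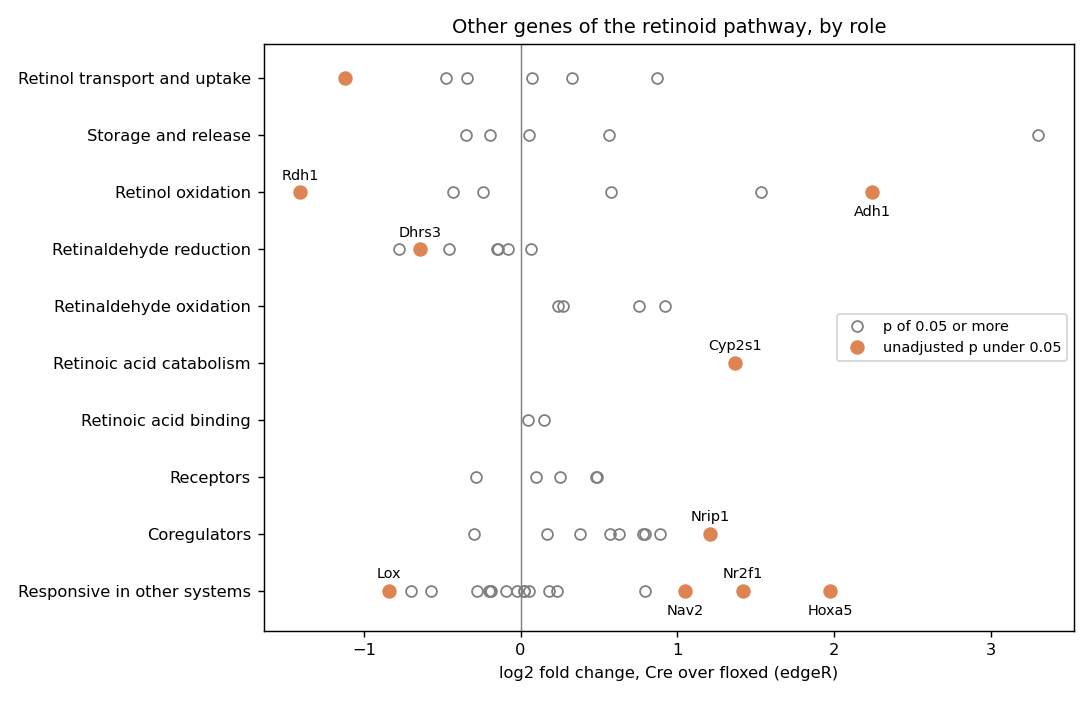
Log2 fold change, libraries labelled Cre over those labelled floxed, of the 63 tested genes of the wider retinoid pathway, grouped by role; filled points had an unadjusted p under 0.05, and none passed the adjusted test. Adh1 lies at 2.24 and Dhrs3 at -0.64, and 8 of 9 coregulators lie above 0, against 6351 of all 13513 tested genes.

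Among receptors and coregulators, Nrip1, a corepressor of nuclear receptors, had 16.4 and 18.7 FPKM in the libraries labelled Cre, against 7.994 and 7.20 FPKM in those labelled floxed. Its libraries were close within groups, with a log2 fold change of 1.21 ± 0.21 (SE; unadjusted p 0.00216, adjusted p 0.133) and 1.11 to 1.29 over 12 alternatives. Of the 9 coregulators tested, 8 had positive log2 fold changes, with a median of 0.63, against 6351 of all 13513 tested genes. Among the 9, 1 was higher at an unadjusted p under 0.05 (11.11%, against 7.3% of all tested genes). Cyp2s1, a cytochrome P450 whose human counterpart metabolises retinoic acid, had 3.67 and 4.77 FPKM in the libraries labelled Cre, against 1.06 and 2.17 FPKM in those labelled floxed (log2 fold change 1.37 ± 0.45, SE; adjusted p 0.295). Of 18 tested genes known to respond to retinoic acid in other systems, 4 had an unadjusted p under 0.05. Of them 3 were higher (16.67%, against 7.3% of all tested genes) and 1 lower (5.56%, against 6.58%). The median log2 fold change of the 18 was -0.0016. The 4 were the transcription factor genes Hoxa5 and Nr2f1, at 1.98 and 1.42, Nav2, at 1.05, and the collagen cross-linking enzyme Lox, at -0.84. Nr2f1 passed the filter through the libraries labelled Cre alone, and without it 2 were higher.

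The genes most like each member over the 4 libraries were taken by the smallest root mean square difference of log2(CPM + 1), centred on each gene's mean. For Stra6 they were Serpina3f (0.25) and Igtp, an interferon-induced GTPase (0.26), and Igtp had 33.7 and 30.8 CPM in the libraries labelled Cre, against 856 and 75.8 CPM in those labelled floxed. Near Aldh1a3 was F2r (0.078), and near Aldh1a1 was Anln (0.066). For Cyp26b1 they were Igfbp5 (0.081) and Zbtb20 (0.11). For Crabp2 the nearest were Calml3 (0.19) and Arg1 (0.23), and Arg1 had 73.1 and 46.8 CPM in the pair labelled Cre, against 4.72 and 19.8 CPM in those labelled floxed. For Aldh1a2 they were Ankrd9 (0.016) and Fndc4 (0.049), for Rbp4 Dusp14 (0.026) and Gm27042 (0.044), and for Cyp26a1 Stmnd1 (0.066) and Gm21083 (0.081). These matches were picked from 13513 genes over 4 libraries and describe the pattern only.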

How the data were processed

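Each of the 4 libraries had 1 table of genes. Per the file headers, the authors deposited raw read counts per gene and FPKM beside them. HISAT2, HTSeq 0.13.5 and GRCm38 are named in the submitters' processing notes; their settings and any use of strand are not stated there. The gene length implied by the count, total count and deposited FPKM was the same in each library, within 1e-06, for 23463 of 23463 genes. These were the genes with such a length from 2 or more libraries. For the 9 members it matched the annotated exon length, and other genes were not compared. Genes with a mean of at least 1 FPKM were tested, 13513 in all, with edgeR 4.0.16 quasi-likelihood tests (R 4.3.3), scaling by TMM, a model of the group alone, 2 residual degrees of freedom and Benjamini-Hochberg adjustment at 0.05. Each SE was taken as the size of the log2 fold change over the root of edgeR's F. CPM values use the scaled library sizes, and 3 counts correspond to 0.127 to 0.173 CPM. Alternatives were other scaling and filters, DESeq2 1.42.0, limma 3.58.1 on log2(FPKM + 1) or log2(FPKM + 0.1), the replicate block and each library left out. The procedure was tested on simulated data. Coordinates and exon overlaps are from GENCODE mouse M21, promoters from RefSeq, both on GRCm38.

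The members and lists were chosen with earlier results of these data known. Named were the members, Smad7, their close relatives, Rdh10, Dhrs3, other pathway genes with an unadjusted p under 0.05, and the 2 genes most like each member; a few genes that this rule names are not reported here. Marker genes, Lrat, Top2b, Dhrs9, Adh7, Rdh16, Rdh5, Rdh12, Adh4 and Rdh9 were named after their values were seen. Counting intervals are 95% exact binomial ones and cover counting error only.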

Additional observations from a re-analysis of the deposited data

How the results depend on the processing

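Of 96 values for the 8 tested members under 12 alternatives, 76 kept direction and side of the threshold, 13 kept direction and passed it, and 7 turned, each with 1 library left out. With 1 library left out, where the lone library is assumed to vary like the other pair, genes called ran from 0 to 2364 higher and 0 to 1885 lower, and members from 0 to 3 higher and 0 to 3 lower by unadjusted p under 0.05. In the same fits log2 fold changes ran from -1.61 to 0.26 for Aldh1a1, -0.13 to 0.61 for Aldh1a2, -1.48 to 0.064 for Cyp26a1, -0.50 to 2.55 for Cyp26b1, -0.12 to 0.74 for Rbp4, -0.60 to 1.83 for Crabp1 and -0.095 to 1.85 for Rdh10, and the log2 ratio of Rarb from -1.50 to 0.83. With no filter edgeR called 995 higher and 933 lower, and DESeq2 called 438 and 405. Members lower at an unadjusted p under 0.05 numbered 0 with limma on log2(FPKM + 1) and 1 on log2(FPKM + 0.1). The cause was not tested. The replicate block gave 0 genes higher and 0 lower, and by unadjusted p under 0.05 there was 1 member higher and 2 lower. Same-numbered libraries deviated with r = -0.083 across genes, so the numbers were not taken to pair them. Depth limits Rarb and Cyp26c1, which rest on few counts.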

Other observations

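Some retinol dehydrogenases too low for the test had most of their counts in the libraries labelled Cre, and were named after their values were seen. Adh7, an alcohol dehydrogenase that oxidises retinol, had 56 and 62 counts in the libraries labelled Cre, against 3 and 4 counts in those labelled floxed, a ratio of 18.7 (95% exact counting interval 8.78 to 47.4). Rdh16 had 66 and 36 counts against 3 and 3 counts, a ratio of 18.8 (8.36 to 52.5), and Rdh18-ps covers 6.13% of its exon bases. The other retinol oxidation genes too low for the test did not stand apart in this way. Rdh5 had 47 and 51 counts against 44 and 37 counts, and Rdh12 had 54 and 39 counts against 24 and 45 counts. Adh4 had 0 and 0 counts against 2 and 0 counts, and Rdh9 had no count in any library. Dhrs9, a short-chain dehydrogenase that was tested (adjusted p 0.663 in edgeR), had 18.8 and 22.3 FPKM in the libraries labelled Cre, against 0.265 and 13.5 FPKM in those labelled floxed, so that floxed replicate 1 stood apart for it by 54.5-fold below floxed replicate 2 (37.0 to 83.9).

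Genes whose promoter window holds the repeat numbered 31, Rarb and Cyp26a1 among them, of which 15 were in the files and 5 were tested. The 5 were the member Cyp26a1, at a log2 fold change of -0.63, Tnfsf13b at -0.12, Blvrb at -0.11, Syndig1 at 0.32 and Gm13030 at 1.61. None of the 5 had an unadjusted p under 0.05 in edgeR. Their median log2 fold change, with Cyp26a1 counted, was -0.11, beside -0.033 for all tested genes.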
